A study of Mus musculus with 4 samples.

Results

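The genes described here are 7 of the 31053 genes counted, namely Vwf, Ackr1, Lrg1, Il1r1, Selp, Icam1 and Vcam1, which mark venous endothelium or hold leukocytes on the vessel wall. They were chosen by their UMI counts in endothelial and other nuclei, with earlier results of these libraries known, so their endothelial levels are given as a description and carry no test. Nuclei were called endothelial when Flt1, Cldn5, Adgrl4 and Mecom together had at least 5 UMIs (unique molecular identifiers, each counting 1 captured transcript). After doublet removal 3959 of 74107 nuclei met that rule, or 5.34% (exact binomial 95% interval 5.18 to 5.51%), and the other 70148 nuclei served as the comparison.

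Single-nucleus RNA-seq was performed on brain tissue labelled cortex or striatum from male C57BL/6J mice aged 8 weeks. Mice had received AAV9, an adeno-associated virus, into the cisterna magna at 4 weeks of age. AAV-VEGF-C carried full-length mouse VEGF-C, the ligand of the lymphatic receptor VEGFR-3, and AAV-CTRL carried a soluble VEGFR-3 fragment fused to an Ig tail that does not bind VEGF-C. Tissue of 5 mice per AAV label was pooled and gave 1 library per region, so the same mice entered both region labels, and AAV label, pool and library cannot be told apart. Values come with the cortex libraries first and AAV-CTRL first within a region. In that order the libraries held 819, 947, 1299 and 894 endothelial nuclei. With 1 library a group no test was run, and every interval is a 95% interval of counting error alone, without the spread between mice or preparations.

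Brain veins and venules are the main site where circulating leukocytes leave the blood. Selectins slow the cells, chemokines held on the endothelium activate their integrins, and the immunoglobulin-type adhesion molecules ICAM-1 and VCAM-1 arrest them. Interleukin-1 acting through its receptor on endothelium switches on adhesion genes through NF-kB.

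The libraries had 63165470, 78332657, 77253372 and 67773329 UMIs, and any pair of them shared 76 to 118 barcodes, at most 0.659% of a library. The striatal genes Ppp1r1b (62.8, 75.5, 18.8 and 18.5 CPM, counts per 1000000 UMIs) and Rgs9 (104, 126, 48.9 and 47.3) were lower in the libraries labelled striatum, against those labels. Slc17a7, a marker of cortical excitatory neurons (419, 459, 58.5 and 42.0 CPM), was higher in the libraries labelled cortex, as they are labelled. The markers thus pointed both ways, and cortex and striatum stand for the labels throughout. Vegfc itself stood at 12.3, 12, 13 and 12 CPM of all nuclei kept, so its level over all cell types together did not separate the AAV labels. The paper reports higher Vegfc in smooth muscle cells after AAV-VEGF-C, and more VEGF-C protein in CSF and brain extracts. Vegfc within single cell types was not compared here. Endothelial identity was read from genes outside the gate. Slco1a4, a barrier transporter, was detected in 75.5 to 85.7% of endothelial and 2.34 to 3.66% of other nuclei, and Pecam1 in 47.1 to 57.6% against 2.34 to 3.04%. Lyve1, a lymphatic marker, was detected in at most 0.783% of endothelial nuclei, and Plvap, a gene of vessels without a barrier, in at most 2.01%, against 1.75 to 2.81% of other nuclei. Other genes of the lymphatic list differed. Prox1 was in 2.93 to 9.28% of endothelial and 7.45 to 18.1% of other nuclei. Flt4, the VEGFR-3 gene, was 19.3 to 45.9-fold and Pdpn 2.26 to 2.76-fold higher in endothelial than in other nuclei. The remaining genes of that list had at most 6 endothelial UMIs in a library. Between 47.7 and 63.6% of endothelial nuclei also had 5 UMIs of another cell type's markers, mostly of the neuronal list, whose median was 3 to 5 UMIs. The medians of the other lists were 0 or 1 UMI.

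The gate cut through a graded series of counts. Among 318 nuclei just below it, with 4 UMIs, Vwf was detected in 9.12%, Il1r1 in 5.35%, Vcam1 in 10.1% and Ackr1 in 8.49%. Among 270 nuclei just inside, with 5 UMIs, the shares were 11.1%, 7.04%, 8.15% and 6.30%. Icam1 was in 2.20% and 1.48%, Lrg1 in 1.26% and 1.11%, and Selp in 0% and 0.370% of the same nuclei. The 3462 nuclei with 7 or more UMIs had Vwf in 20.8%.

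The promoters of Icam1, Selp and Lrg1 are shown because these genes were detected in the same nuclei as the IL-1 receptor gene. They were also chosen because NF-kB or ETS motifs lie in them, the latter bound by endothelial factors of the ETS family. Not shown are Ackr1, which held both motifs, and Il1r1, whose promoter 2 held an NF-kB motif. Of the 7 genes 5 matched RefSeq's promoter table (GRCm38.p6, 250 bases before to 50 after a start), with 6 promoters between them. Each sequence is in gene direction and stops before any annotated transcript. Capitals mark GGNNNTTCC, the letters of an NF-kB site, and AGGAAG, an ETS site, on either strand.
Icam1, chr9:21015690-21015939, plus strand: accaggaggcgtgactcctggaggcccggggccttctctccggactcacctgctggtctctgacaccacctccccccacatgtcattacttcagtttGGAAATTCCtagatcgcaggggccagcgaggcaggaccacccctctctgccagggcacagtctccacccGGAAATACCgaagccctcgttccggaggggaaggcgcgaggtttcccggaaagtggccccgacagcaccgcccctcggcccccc
Selp, chr1:164115014-164115263, plus strand: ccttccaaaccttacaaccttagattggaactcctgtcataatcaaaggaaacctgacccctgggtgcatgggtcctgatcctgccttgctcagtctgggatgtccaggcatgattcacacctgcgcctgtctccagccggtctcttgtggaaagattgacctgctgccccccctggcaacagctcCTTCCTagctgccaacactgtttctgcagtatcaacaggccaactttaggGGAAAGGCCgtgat
Lrg1, chr17:56122002-56122196, minus strand: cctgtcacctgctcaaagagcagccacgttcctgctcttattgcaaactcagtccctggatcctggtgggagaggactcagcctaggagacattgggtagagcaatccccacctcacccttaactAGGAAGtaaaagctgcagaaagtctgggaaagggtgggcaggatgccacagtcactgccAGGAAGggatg

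The Icam1 window held GGNNNTTCC at 153 bases before the start, read on both strands as GGAAATTCC, and at 84 bases on the minus strand. Selp held it at 14 bases before the start, with an ETS site at 64, and the printed part of Lrg1 held ETS sites at 125 and 66. Of all 32851 promoters 18.5% held GGNNNTTCC and 35.4% held AGGAAG in their 300 bases. The TTCC of the NF-kB letters is shared with the ETS core, and the motifs were chosen after the sequences had been read. A match is a description of the letters and not of binding.

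Vwf was the most endothelial of the 6 genes with enough UMIs to compare. It encodes von Willebrand factor, the multimeric plasma protein that endothelium stores with P-selectin in Weibel-Palade bodies (ENSMUSG00000001930, chromosome 6, 125546774 to 125686679, plus strand, GRCm38). Its level in endothelial nuclei was 125, 178, 157 and 186 CPM, against 1.47, 1.52, 2.82 and 2.31 in other nuclei. The libraries of AAV-VEGF-C were the higher of each region, and no endothelial value came near a value of other nuclei. The ratio was 85.3, 117, 55.7 and 80.5-fold, and 77.7 to 84.4% of all Vwf UMIs lay in endothelial nuclei. The gene was detected in 19.5, 22.2, 17.2 and 20.6% of endothelial nuclei and in 0.481 to 0.784% of the others, at median depths of 1921 to 2290.5 and 2184.5 to 2760 UMIs.

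Il1r1, the signalling receptor for interleukin-1 (ENSMUSG00000026072, chromosome 1, 40225080 to 40317257, plus strand), stood at 92.3, 118, 143 and 144 CPM of endothelial nuclei and at 6.00, 5.89, 6.03 and 5.35 of other nuclei. It was lowest in the cortex AAV-CTRL library, and all endothelial values lay far above the others. The ratio was 15.4 to 26.9-fold over the libraries. It was detected in 11.2, 11.4, 13.1 and 12.6% of endothelial nuclei and in 1.61 to 1.91% of other nuclei, so that 41.8 to 60.6% of its UMIs were endothelial.

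Lrg1 encodes a secreted leucine-rich glycoprotein that modulates TGF-beta signalling in endothelium (ENSMUSG00000037095, chromosome 17, 56119678 to 56122001, minus strand). It gave 6.46, 15.6, 12.4 and 27.6 CPM of endothelial nuclei and 1.08, 1.10, 0.509 and 0.515 of other nuclei. The ratio spanned 5.98 to 53.6-fold, and the endothelial value was the higher, and the value of other nuclei the lower, under the striatum label within each AAV label. Only 13, 16, 16 and 23 endothelial nuclei had a UMI, and in the striatum AAV-CTRL library 1 nucleus held 22 of its 50 UMIs.

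The adhesion genes followed. Icam1 (ENSMUSG00000037405, chromosome 9, 21015985 to 21028817, plus strand) encodes the ligand of the leukocyte integrins LFA-1 and Mac-1. It stood at 24.3, 34.0, 47.7 and 40.4 CPM of endothelial nuclei and at 1.77, 1.48, 1.96 and 1.91 of other nuclei, which is 13.7 to 24.4-fold. In the striatum AAV-CTRL library 48 of its 193 UMIs came from 1 nucleus. Vcam1 (ENSMUSG00000027962, chromosome 3, 116109949 to 116129688, minus strand), ligand of the integrin VLA-4, stood at 112, 116, 158 and 133 CPM against 8.57, 7.74, 11.9 and 9.86, or 13.1 to 15.0-fold. Its detection in endothelial nuclei was even over the libraries, at 10.5, 11.9, 12.2 and 11.6%.

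Selp, the gene of P-selectin, the receptor that first tethers rolling leukocytes (ENSMUSG00000026580, chromosome 1, 164115264 to 164150026, plus strand), was scarce. It gave 1, 6, 16 and 10 UMIs in 1, 4, 6 and 5 endothelial nuclei, or 0.380, 1.91, 3.96 and 2.91 CPM. Other nuclei held 6, 10, 13 and 8 UMIs, or 0.106 to 0.201 CPM. The endothelial value was the higher in each library, but in the cortex AAV-CTRL library the interval of the ratio ran from a log2 of -3.69 to 4.88, and 9 of the 16 UMIs in the striatum AAV-CTRL library came from 1 nucleus.

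Of the 6 genes that had at least 20 UMIs over endothelial and other nuclei in every library, 5 were at least 2-fold higher in endothelial than in other nuclei in all 4 libraries, where 12.1% of the 18438 genes tested did the same. The rule names these nuclei and these genes together, so nothing is read from that count. Selp had fewer. Where files or annotation show overlapping antisense genes, reads of both could not be separated with certainty, since the strand setting of the counting was not given: Gm16587 and Gm16548 overlap Selp, Gm47079 overlaps Icam1 over 511 bases and Gm43109 overlaps Vcam1 over 1238 bases.

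**Figure D1:**
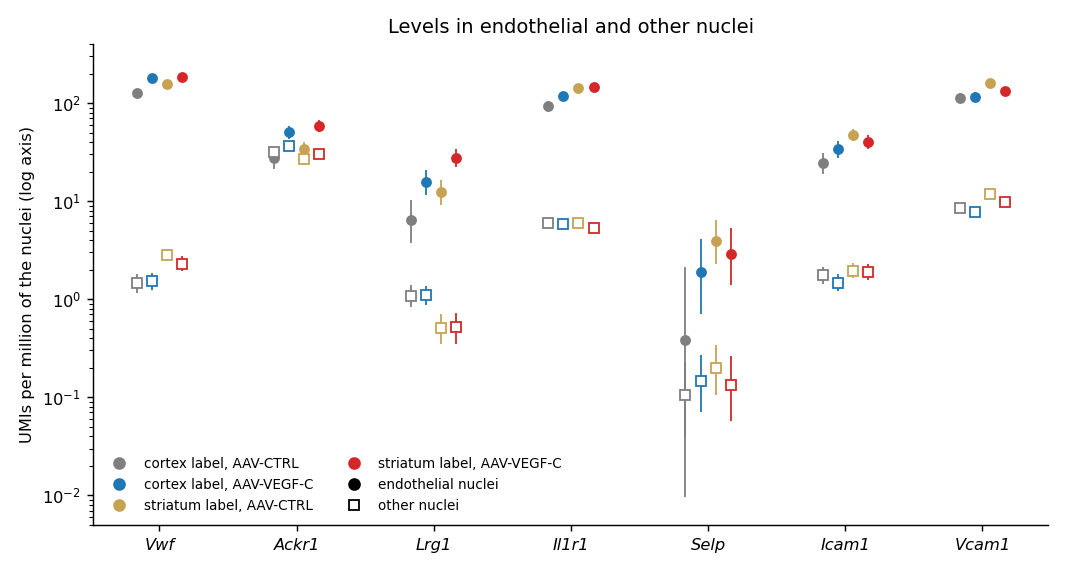
Levels of the 7 genes in CPM on a log axis, for endothelial nuclei (filled circles) and other nuclei (open squares) of the 4 libraries (colours), with 95% Poisson intervals that cover counting error. Ackr1 is the gene whose endothelial and other values overlap, and Selp rests on 1 to 16 endothelial UMIs a library.

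Ackr1 was the exception, with endothelial and other levels that overlapped over the libraries. It encodes the Duffy antigen receptor, an atypical chemokine receptor that carries chemokines across venular endothelium without signalling (ENSMUSG00000037872, chromosome 1, 173331886 to 173333750, minus strand). Endothelial nuclei gave 27.3, 50.2, 33.6 and 57.9 CPM and other nuclei 31.8, 36.6, 26.6 and 30.2. The log2 ratio was -0.22, 0.46, 0.34 and 0.94, and 0.44 pooled over the libraries. With each nucleus thinned to 1000 UMIs the pooled value was -0.025. Only 3.85 to 9.87% of Ackr1 UMIs were endothelial. It was detected in 13.7% of 41035 neurons, against 7.02% of endothelial nuclei, at median depths of 3871 to 4636.5 and 1921 to 2290.5 UMIs. By pooled CPM the neurons were the lower, at 33.6 (29.4 to 37.9 over the libraries) against 42.6 (27.3 to 57.9), and these ranges overlap.

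The first 493 bases of the Ackr1 gene, at chromosome 1, 173333258 to 173333750, lie inside Cadm3, a neuronal adhesion gene read on the same strand. Per 100 Cadm3 UMIs, neurons held 16.6, 17.2, 15.7 and 16.4 Ackr1 UMIs, a ratio nearly constant over the libraries. All nuclei outside the endothelial gate held 16.7, 17.4, 16.0 and 16.4, but the same neurons supplied 6318 of their 7841 Ackr1 UMIs. The ratio ranged more widely in smaller gates, from 16.73 to 20.83 in oligodendrocytes and from 11.98 to 19.89 in astrocytes. In microglia it ran from 11.48 to 17.39, on 6 to 13 Ackr1 UMIs a library. Endothelial nuclei held 25.1, 42.2, 39.1 and 69.6. Neurons with a Cadm3 UMI had Ackr1 in 15.1, 18.3, 14.3 and 18.7%, those without in 10.1, 11.3, 9.11 and 10.7%, and they also differed in depth, with medians of 4733.5 to 5618.5 against 2973.5 to 3336 UMIs. How far reads of the shared stretch account for the neuronal counts was not tested.

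Endothelial nuclei were over-represented at high Ackr1 counts, by the share of each class. At least 3 UMIs were found in 35 endothelial nuclei (0.884%) and 73 others (0.104%), and at least 2 in 52 (1.31%) and 676 (0.964%). At least 5 Ackr1 UMIs were found in 22 of 3959 endothelial nuclei (0.556%, interval 0.349 to 0.840%) and in 6 of 70148 others (0.00855%, interval 0.00314 to 0.0186%). By library the endothelial nuclei at that count were 1, 7, 5 and 9 and the others 2, 3, 0 and 1. The highest endothelial count was 5, 18, 14 and 47 UMIs, whereas no other nucleus exceeded 5. At 1 UMI or more the order was the opposite, with 7.02% of endothelial and 10.1% of other nuclei. Median depths were 1921 to 2290.5 and 2184.5 to 2760 UMIs, and the part of depth in these shares was not tested.

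Other cell types were read from gates of 4 markers each, and 11 of them held at least 50 nuclei. Vwf, Il1r1 and Selp were highest in endothelial nuclei. Selp stood at only 2.49 CPM there. Its 0 UMIs in 145 pericytes and 58 smooth muscle nuclei cannot be compared with so low a level. The next levels of Vwf were in smooth muscle (67.5 CPM, 6 UMIs in 5 of 58 nuclei) and pericytes (22.1, 5 UMIs in 4 of 145 nuclei), both on few counts. For Il1r1 they were choroid plexus epithelium, with 36.3 CPM and 10.7% of 75 nuclei, and fibroblasts, with 33.1 and 5.1% of 451 nuclei.

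Icam1 was shared between endothelium and microglia. Microglia held 47.3 CPM (43.6 to 55.4 over the libraries) and endothelial nuclei 37.9 (24.3 to 47.7), with a UMI in 6.57% of 1066 microglia and 5.96% of endothelial nuclei, and these ranges overlap. Astrocytes stood at 1.76 CPM, neurons at 0.734 and fibroblasts at 10.3. Of 95 border macrophages 0 had a UMI, which allows a share of up to 3.81% at the upper end of the exact interval.

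Vcam1 was widely spread. Choroid plexus epithelium held 145 CPM (104 to 169 over the libraries), which overlaps the endothelial 133 (112 to 158), and 34.7% of its 75 nuclei had a UMI (interval 24.0 to 46.5%). Border macrophages followed with 108, smooth muscle with 90.0, fibroblasts with 89.1 and astrocytes with 66.2, and the ranges of the first 3 of these over the libraries overlap the endothelial range. Astrocytes had a UMI in 12.5% of nuclei, close to the endothelial 11.7%, but 3 or more UMIs in 0.0602%, against 4.27% of endothelial nuclei. Microglia and neurons stood at 4.79 and 3.36 CPM.

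Lrg1 had 4 of 14 nuclei positive in the neutrophil gate, with 7 UMIs in all, and 1 of 58 in smooth muscle, too few to place against the 15.9 CPM of endothelium. Neurons stood at 0.660.

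**Figure D2:**
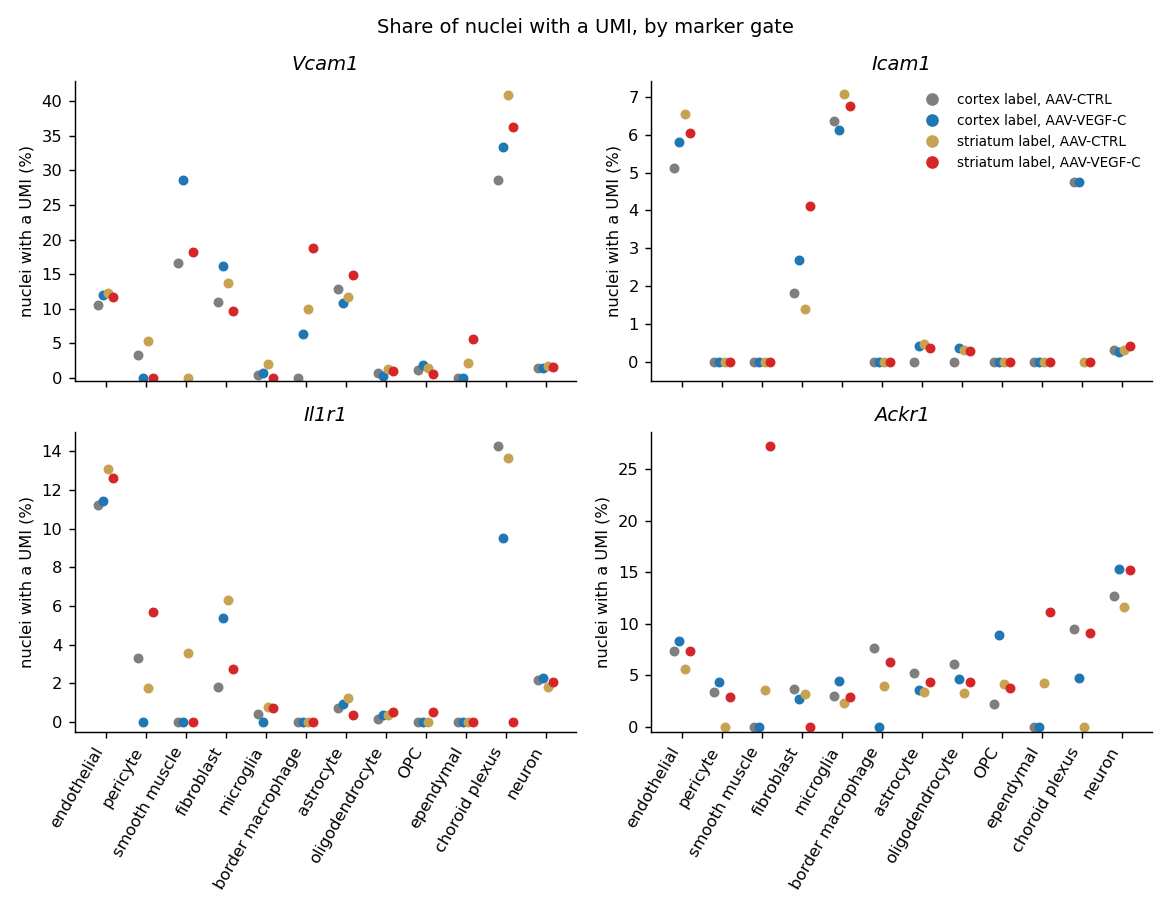
Share of nuclei with at least 1 UMI (%) of Vcam1, Icam1, Il1r1 and Ackr1 in 12 marker gates, with 1 point for each library. Vcam1 was highest in choroid plexus, Icam1 in endothelium and microglia, and Ackr1 was found in every gate. Smooth muscle, border macrophage, ependymal and choroid plexus gates held 58 to 95 nuclei over all libraries, so their points are coarse.

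The genes were detected together in the same endothelial nuclei. To set the nuclei at equal depth, each was thinned to 1000 UMIs, which left out 142 shallower nuclei and kept 3817. Counts of nuclei below come from 1 random draw. Of these 3087 had a UMI of none of the 7 genes, 527 of 1, 130 of 2, 46 of 3, 17 of 4, 7 of 5 and 3 of 6. Nuclei with 3 or more genes numbered 10, 22, 25 and 16 over the libraries, 73 in all or 1.91% (interval 1.5 to 2.4%). Averaged exactly over all possible draws, 63.7 nuclei (SD over draws 4.97) or 1.67% had 3 or more, so the draw shown lies above the average. With all UMIs there were 250 such nuclei (6.31%), and the median depth ran from 1775 UMIs in nuclei with 0 genes to 27749 in the 5 nuclei with all 7.

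Detection of any of the 7 genes was even over the libraries, at 19.0, 20.8, 18.5 and 18.3% of thinned nuclei, and 19.1% in all. The share with 3 or more was 1.26, 2.41, 2.04 and 1.81%, with intervals of 0.605 to 2.30% and 1.51 to 3.62% in the cortex libraries and of 1.32 to 3.00% and 1.04 to 2.93% in the striatum libraries, which overlap one another.

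Among the 365 nuclei with Vwf, 90 also had Vcam1 (24.7%), against 3.53% of the 3452 without Vwf. The ratio of these shares, with 0.5 nuclei added to each count as in the other ratios of shares from this draw, was 6.97 and lay between 5.12 and 8.72 in each library. Across all genes with at least 40 positive nuclei 2.23% reached a ratio of 2 in Vwf-positive nuclei. The other 6 genes all did, but Lrg1 (32 positive nuclei) and Selp (5) lie below that minimum. Il1r1 was found in 20.3 against 4.23% of nuclei with and without Vwf, Lrg1 in 4.66 against 0.435%, Ackr1 in 8.49 against 2.55% and Icam1 in 7.40 against 1.91%. The pair of Vwf and Icam1 was the least even, with a ratio of 3.90 over all nuclei, 6.21 in the highest library and 0.94 in the lowest.

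Il1r1 was paired with every adhesion gene. Of its 220 positive nuclei 25.9% had Vcam1 against 4.31% of the others, 12.3 against 1.83% had Icam1, and 7.27 against 0.445% had Lrg1. In each library these 3 ratios were at least 4.32. Of all genes with at least 40 positive nuclei, a minimum that Lrg1 does not reach, 3.58% had a ratio of 2 beside Il1r1.

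Icam1 and Vcam1, the ligands of leukocyte integrins, were found together in 31 nuclei. Of the 93 Icam1-positive nuclei 33.3% had Vcam1 against 4.86% of the others, a ratio of 6.88 that ranged from 5.98 to 8.92 over the libraries. Of the 212 Vcam1-positive nuclei 42.5% had Vwf against 7.63%. The background shares at a ratio of 2 were 8.36% for Icam1 and 4.65% for Vcam1.

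Lrg1 and Ackr1 shared 14 nuclei. Of 119 Ackr1-positive nuclei 14 had Lrg1 (11.8%), against 0.487% of the others, a ratio of 24.2 (16.5 to 48.2 over the libraries). This ratio depended on the draw and averaged 11.8 over all draws, where the ratios of Lrg1 beside Vwf, Il1r1 and Vcam1 averaged 14.2, 13.8 and 13.9. In the draw shown 43.8% of the 32 Lrg1-positive nuclei had Ackr1, 53.1% had Vwf and 50% had Il1r1, against 2.77, 9.19 and 5.39% of the nuclei without Lrg1. The background was 6.36% of genes for Ackr1 and 20.2% for Lrg1. All 21 pairs had a ratio of at least 2 in both directions, in the draw shown and on average over draws, but the background for Selp, with 5 positive nuclei, was 62.3% of genes.

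**Figure D3:**
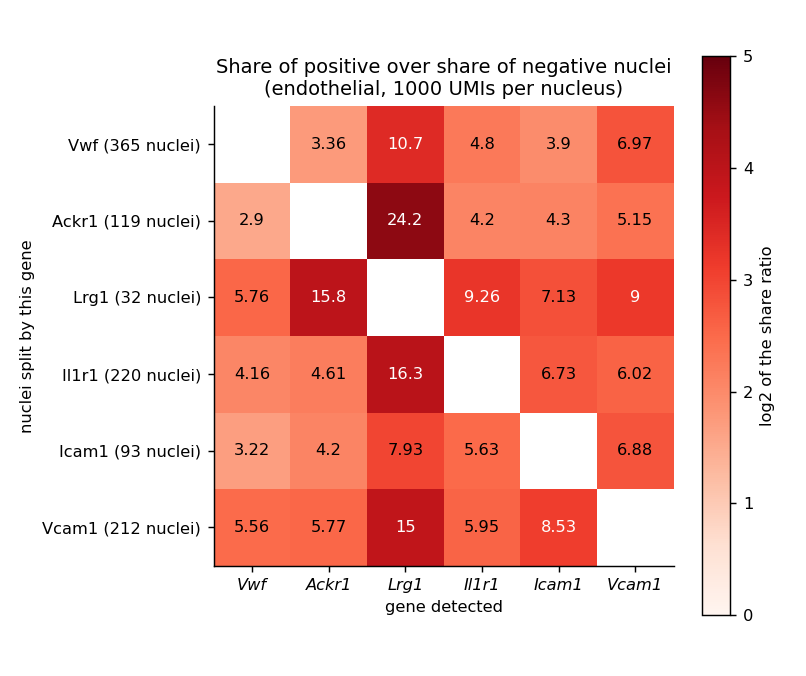
Co-detection in 3817 endothelial nuclei thinned to 1000 UMIs, for 6 genes without Selp. Each cell gives the share of nuclei with the column gene among nuclei positive for the row gene, divided by its share among negative nuclei, with colour on a log2 scale. All ratios exceed 2, and the ratio of Lrg1 in Ackr1-positive nuclei, 24.2 in the draw plotted, averaged 11.8 over all draws.

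Selp was found in 16 endothelial nuclei at full depth, and these were rich in the other genes. Vwf was present in 14 of them, Vcam1 in 13, Il1r1 in 10, Icam1 in 10, Ackr1 in 8 and Lrg1 in 7, and 11 had at least 3 of the other genes. Their median depth was 5394 UMIs, above the 1775 of nuclei without any of the 7 genes, and the part of depth in these counts was not tested. Since platelets carry P-selectin and von Willebrand factor too, 6 megakaryocyte and platelet genes were read in the same nuclei, and 3 of 16 had a UMI of that list. Sele, which encodes E-selectin and was looked up after the Selp values were known, was present in 4.

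Vessel-zone genes outside the 7 differed with the number of the 7 detected, again at 1000 UMIs a nucleus. A list of 8 venous genes gave 1.22 UMIs per 1000 in nuclei with none of the 7, 1.33 with 1, 1.62 with 2 and 2.70 (interval 2.33 to 3.10) with 3 or more. Capillary genes went the other way, at 4.03, 3.56, 2.17 and 1.25. Arterial genes peaked at 2 genes, with 0.838, 1.23, 2.46 and 0.699, and the 8 barrier genes stayed between 5.39 and 5.92.

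Between nuclei with 3 or more and with 0 of the genes, 6 of 8 venous genes had a ratio of shares of at least 2 and 1 of at most 0.5, or 5 and 1 without the 0.5 nuclei added, where 11.8% of all genes tested were higher and 14.2% lower. The median ratio of the list was 3.56, against 1.05 over all genes. Nr2f2, which encodes COUP-TFII, the transcription factor of venous identity, was in 10.7% of the nuclei with none and 30.1% of the 73 with 3 or more. Slc38a5, a glutamine transporter gene, was in 5.51 and 23.3%, and Lcn2, which encodes the iron-siderophore binding protein lipocalin-2, in 0.259 and 31.5%. Tmem252 and Ephb4, the latter the venous ephrin receptor, also passed the ratio, Ephb4 only with the 0.5 added (4.15 and 8.22%, a plain ratio of 1.98), while Hmcn1 was the gene lower, at 37.4 and 9.59%.

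Of 8 capillary genes 5 were at least 2-fold less often detected and 0 more often. Mfsd2a, the lipid transporter of barrier capillaries, went from 14% to 0 of 73 nuclei, which allows up to 4.93%. Cxcl12, a chemokine gene, stood at 47.3 and 12.3%, and Car4, a capillary carbonic anhydrase gene, at 22.6 and 9.59%. Rgcc and Slc7a5 made up the 5. Of 10 arterial genes 3 were lower (Sema3g, Unc5b and Alpl) and 1 higher (Fbln5), and by plain shares Gkn3 and Hey1 were lower too, which makes 5. Of 8 barrier genes 1 was lower, Slco1c1, at 52.9 and 21.9%, while Slco1a4 was at 67.4 and 67.1%.

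Cytokine receptor and activation genes were more frequent in the same nuclei. Of 14 testable genes of that list 8 were at least 2-fold higher and 0 lower, with a median ratio of 2.39, and by plain shares 1 was lower, Tnfrsf1b, with 1.2% and 0 of 73 nuclei. Il6ra, an interleukin-6 receptor subunit gene, was in 3.85 and 24.7% of nuclei, Il6st, its signalling partner, in 10.1 and 24.7%, and Osmr, the oncostatin M receptor gene, in 6.87 and 24.7%. Ptgs2, which encodes the inducible prostaglandin synthase COX-2, was in 0.454 and 15.1%. Tnfrsf1a, Il4ra, Relb and Stat3 were the others, with Relb at 1.68 and 8.22%. Of 9 testable genes of leukocyte recruitment outside the 7, 0 passed the ratio in either direction, with a median of 1.22. The fibroblast list was also higher, at 0.259 and 1.14 UMIs per 1000, whereas the pericyte list was at 0.578 and 0.384, and the part of the fibroblast genes in these values was not tested.

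**Figure D4:**
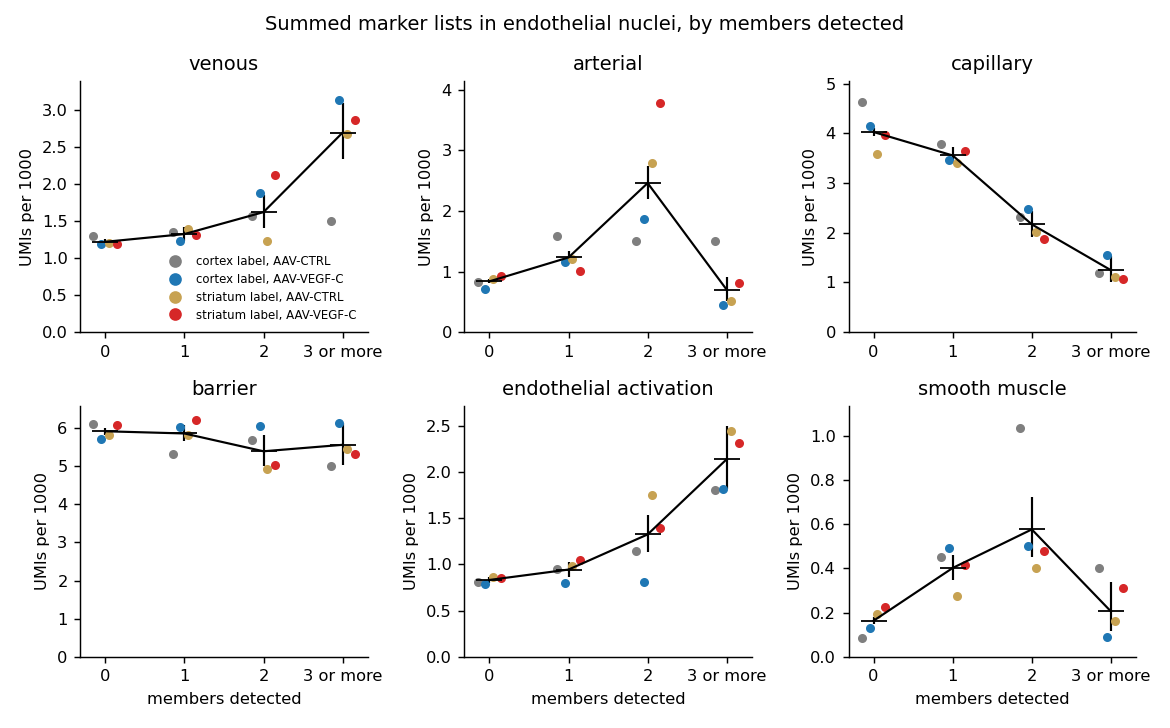
Summed UMIs per 1000 of gene lists in endothelial nuclei, by the number of the 7 genes detected (0, 1, 2, or 3 and more), each nucleus thinned to 1000 UMIs. Points are the 4 libraries and lines join the pooled values, with 95% Poisson intervals. Venous and activation lists were highest and the capillary list lowest at 3 or more genes, and the arterial list peaked at 2.

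Vwf, Vcam1 and Icam1 were also found beside arterial genes. Nuclei with Vwf had 1.94 times the arterial UMIs of nuclei without, those with Vcam1 2.47 times and those with Icam1 1.48 times, whereas Il1r1 (0.626), Ackr1 (0.777) and Lrg1 (0.792) had fewer. Markers of mural cells and fibroblasts moved too. The smooth muscle list was 4.68 times as high beside Vcam1, 2.88 beside Vwf and 1.64 beside Lrg1. It was lower beside Il1r1 (0.567), Icam1 (0.554) and Ackr1 (0.312). Venous UMIs were higher beside each, at 1.24 for Vwf, 1.37 for Vcam1, 1.54 for Il1r1, 1.45 for Ackr1, 1.59 for Icam1 and 2.00 for Lrg1. The fibroblast list was higher by more beside each of these, at 2.21, 2.89, 1.91, 1.60, 1.61 and 2.70 in that order. The part of smooth muscle and fibroblast markers in the arterial and venous values was not tested. In a split chosen after these values were seen, the 74 nuclei with Vwf and Il1r1 had 2.26 venous and 0.770 arterial UMIs per 1000, and the 291 with Vwf alone 1.37 and 1.92. The 146 nuclei with Il1r1 alone had 1.73 and 0.521, and the 3306 with neither 1.23 and 0.883. The smooth muscle list was at 0.581 UMIs per 1000 with Vwf alone and 0.0548 with Il1r1 alone, and its part in the arterial values was not tested.

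The genes most like each member were ranked by the same ratio of shares, over genes with at least 40 positive nuclei of 3817 and a ratio above 1 in each library. Lcn2 ranked first for all 5 members with enough nuclei. Its ratio was 34.4 beside Vcam1 (14.6 against 0.416%), 16.3 beside Il1r1, 16.0 beside Icam1, 15.2 beside Ackr1 and 10.3 beside Vwf. Cysltr1, the gene of a leukotriene receptor, was among the 5 most alike of each, with ratios of 7.18 to 12.9, and Gm5127 likewise, with 6.96 to 14.3. Ptgs2 was listed for Ackr1, Il1r1 and Vcam1, Nfkbiz, an NF-kB target and modulator, for Icam1 at 9.34, and Vcam1 itself for Vwf at 6.97. Lcn2 was positive in only 46 nuclei, and its ratio beside Vwf ranged from 2.47 to 25.7 over the libraries. Lrg1 and Selp had too few positive nuclei to rank.

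By AAV label the summed endothelial UMIs of Lrg1 and Ackr1 differed most, among genes with at least 20 UMIs over the pair of libraries. In cortex Lrg1 gave 17 UMIs under AAV-CTRL and 49 under AAV-VEGF-C, and in striatum 50 and 95. The log2 ratio of CPM was 1.27 (interval 0.45 to 2.16) in cortex and 1.16 (0.65 to 1.69) in striatum. The share of nuclei with a UMI was 1.59 and 1.69% in cortex, a log2 ratio of 0.09, and 1.23 and 2.57% in striatum, 1.06. In other nuclei the log2 ratio was 0.02 in both regions. The neutrophil marker list in endothelial nuclei stood at 4.94 and 77.2 CPM in cortex and at 23.2 and 27.6 in striatum. Its part in the Lrg1 values was not tested.

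Ackr1 had log2 ratios of 0.88 (0.46 to 1.30) in cortex and 0.78 (0.46 to 1.11) in striatum, with 0.20 and 0.18 in other nuclei. Its shares of nuclei differed by log2 ratios of 0.19 and 0.39 only. With each nucleus at 1000 UMIs the ratio was 0.44 and 0.28, below 1.5-fold, while that of Lrg1 was 0.67 and 0.98 but rested on under 20 UMIs. Without the nucleus with the most UMIs in each library that of Ackr1 was 0.80 and 0.57, the last under 1.5-fold, since 47 of 199 Ackr1 UMIs in the striatum AAV-VEGF-C library came from 1 nucleus.

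Lrg1 and Ackr1 were the 2 of 6 genes tested in cortex, and the 2 of 7 tested in striatum, that were at least 1.5-fold higher under AAV-VEGF-C, where 4.5% and 3.49% of all genes were. Of the 7, 0 were as much lower, against 3.57% and 8.34% of all genes. The median log2 ratio of the tested members was 0.50 in cortex and 0.01 in striatum, and that of all genes -0.00 and -0.05.

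The others with enough UMIs differed less by summed UMIs. Vwf had a log2 ratio of 0.51 (0.31 to 0.71) in cortex and 0.24 (0.08 to 0.40) in striatum, and at 1000 UMIs a nucleus 0.46 and 0.06. Il1r1 had 0.35 (0.12 to 0.59) and 0.01 (-0.16 to 0.19). Icam1 was higher in cortex, 0.48 (0.02 to 0.95), and lower in striatum, -0.24 (-0.56 to 0.08), and Vcam1 stood at 0.04 (-0.18 to 0.27) and -0.25 (-0.43 to -0.08). At 1000 UMIs a nucleus Il1r1 had 0.36 and -0.22, Icam1 0.33 and -0.38 and Vcam1 -0.12 and -0.53. At that depth Icam1 and Vcam1 thus differed by more than Ackr1 (0.28) in striatum, and Vwf by about as much as Ackr1 (0.44) in cortex. Selp gave 1 and 6 UMIs in cortex and 16 and 10 in striatum, with an interval of -1.74 to 0.79 for the log2 ratio in striatum. Endothelial nuclei under AAV-CTRL and AAV-VEGF-C had median depths of 1921 and 1958 UMIs in cortex and of 1966 and 2290.5 in striatum, and 63.6 and 58.6%, and 47.7 and 55.6%, of them reached another cell type's gate. The part of these in the differences was not tested. With 1 pool of mice per AAV label, none of these differences has a replicate check.

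**Figure D5:**
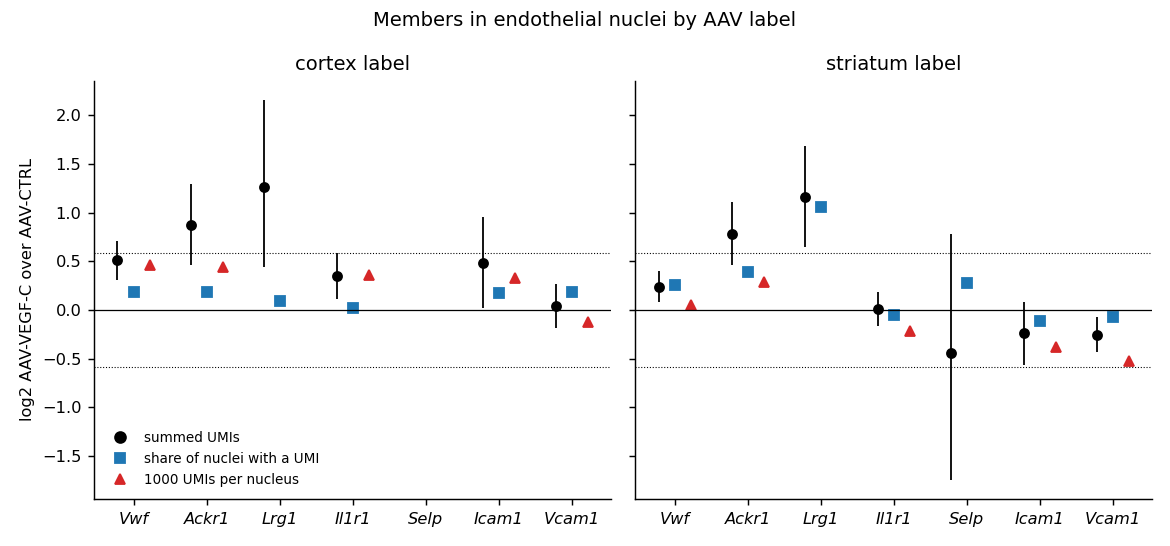
Log2 ratio of AAV-VEGF-C over AAV-CTRL in endothelial nuclei for each gene by region label, from summed CPM (black, with 95% interval of counting error), from the share of nuclei with a UMI (blue) and from nuclei thinned to 1000 UMIs (red). Dotted lines mark 1.5-fold. Summed UMIs of Ackr1 and Lrg1 lie above the line in both regions, while their shares lie below it except for Lrg1 in striatum. Values from fewer than 20 UMIs over the pair of libraries are not drawn.

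Vessel and adhesion genes outside the 7 showed few differences of that size. Of 8 venous genes 1 was at least 1.5-fold higher in cortex, Lcn2, with 13.7 and 25.4 CPM, and 0 in striatum, where it stood at 33.1 and 41.6. The list's median log2 ratio was -0.10 and 0.13. Of the leukocyte recruitment genes 0 of 10 in cortex and 0 of 11 in striatum passed, with medians of -0.17 and -0.07. Sele, under the minimum and named after its values were seen, had 1 and 18 UMIs in cortex (log2 ratio 3.91, interval 1.25 to 9.29) and 5 and 5 in striatum. Of 18 activation genes 1 was higher in cortex, Il1rap, the co-receptor gene of Il1r1 (34.9 and 59.1 CPM, below its level in other nuclei), and 3 lower, Socs3, Cyr61 and Ch25h, while 0 passed in striatum. Of 10 arterial genes Gkn3 alone was higher, in striatum (73.2 and 118), and the 8 capillary and 8 barrier genes had 0 in either region. Among scarcer lists Aqp1 and Itga2b were higher and Cd300lg lower in cortex, and Aqp1 lower in striatum. Socs3, Cyr61, Ch25h, Aqp1, Itga2b and Cd300lg are named after their values were seen.

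By region label the summed levels of the members were higher under striatum, with exceptions when the share of nuclei or nuclei at equal depth were used. Under AAV-CTRL 3 of 6 tested genes were at least 1.5-fold higher, where 15.5% of all genes were, and under AAV-VEGF-C 1 of 6, where 9.88% were. Lower by that much were 0 of 6 in both, against 5.87% and 7.11% of all genes. Lrg1 was the gene higher in both, by log2 ratios of 0.94 (0.12 to 1.82) and 0.83 (0.32 to 1.36), but its share of nuclei under AAV-CTRL was the lower in striatum (-0.37). In other nuclei Lrg1 was lower under striatum, by -1.08 and -1.09.

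Icam1 had 0.97 (0.56 to 1.40) under AAV-CTRL and 0.25 (-0.12 to 0.63) under AAV-VEGF-C, and Il1r1 0.63 (0.41 to 0.85) and 0.29 (0.09 to 0.49). Vcam1 stood at 0.49 and 0.20, Vwf at 0.33 and 0.06 and Ackr1 at 0.30 and 0.21. With nuclei thinned to equal depth these genes were all lower under striatum in the AAV-VEGF-C libraries. The log2 ratios were -0.38 for Vwf, -0.34 for Ackr1, -0.22 for Il1r1, -0.10 for Icam1 and -0.09 for Vcam1. Under AAV-CTRL, Ackr1 turned to -0.18 and Vwf to 0.03, while Il1r1 (0.36), Icam1 (0.61) and Vcam1 (0.31) stayed higher. Lrg1 and Selp stayed higher under both AAV labels, on few UMIs. In the striatum AAV-CTRL library 104 of 640 Vcam1 UMIs came from 1 nucleus. Vcam1 and Vwf were also higher in other nuclei under striatum, Vcam1 by 0.47 and 0.35 and Vwf by 0.94 and 0.60.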

How the data were processed

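Nuclei were isolated from brain tissue and sequenced by droplet single-nucleus RNA-seq. The authors deposited UMI counts per gene and nucleus from Cell Ranger, raw and not normalized, on mm10 (GRCm38). The version is 5.0.1 in the file header and 5.1.1 in the submitters' processing notes, and the annotation, strand and intron settings are not given in the sources used here. Depth was 63165470 to 78332657 UMIs a library.

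Doublets were called per library with Scrublet (scanpy 1.11.5, expected rate 8%) and 4621 of 78728 nuclei were removed. Counts were summed per library and class. CPM carry exact Poisson intervals, shares exact Clopper-Pearson intervals and ratios exact conditional binomial intervals, all at 95% (scipy 1.17.1). Levels were compared at a minimum of 20 UMIs over the pair of libraries, or over endothelial and other nuclei in every library, and co-detection at 1000 UMIs a nucleus, from 1 seeded draw, with 0.5 nuclei added to each count in ratios of shares from it. TMM factors (edgeR 4.0.16, R 4.3.3) and the other alternatives are given in the closing section. No test was run, each group being 1 library. Scripts were tested on simulated data. Tables used pandas 2.3.3 and figures matplotlib 3.10.9.

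The members and lists were chosen with earlier results of these data known. Genes of the lists were named where they had at least 20 endothelial UMIs in every library, or where 5 or fewer passed a ratio. The values of 1 gene of the venous list are not reported here.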

Additional observations from a re-analysis of the deposited data

Results flagged for a closer look

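In endothelial nuclei Icam1 and Vcam1 had log2 ratios of opposite sign by AAV label in the regions, though the signs did not hold under every setting. For Icam1 the log2 ratio of AAV-VEGF-C over AAV-CTRL was 0.48 (counting interval 0.02 to 0.95) in cortex and -0.24 (-0.56 to 0.08) in striatum, a difference of 0.72. For Vcam1 it was 0.04 (-0.18 to 0.27) and -0.25 (-0.43 to -0.08), a difference of 0.29. Each value compares 1 library with 1 library, the same pooled mice entered both regions, and the difference between regions was not tested. In the striatum AAV-CTRL library 1 nucleus held 48 of 193 Icam1 and 104 of 640 Vcam1 UMIs. Without the nucleus with the most UMIs in each library the ratios were 0.56 and -0.14 for Icam1 and 0.02 and -0.20 for Vcam1. For Vcam1 in cortex the sign turned at 1000 UMIs a nucleus (-0.12), with doublets kept (-0.06) and without nuclei of another gate (-0.02). For Icam1 in striatum the value was 0.0072 with doublets kept and 0.03 without nuclei of another gate.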

How the results depend on the processing

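Each of 51 results was recomputed under up to 16 alternatives, which gave 544 values. Of these, 462 kept their side of the threshold or moved by less than the limits set. Ratios past the threshold also had to keep their direction. A ratio under the threshold could change sign and still be counted as kept. The pooled log2 ratio of Ackr1 in endothelial over other nuclei did so, from 0.44 to -0.025 at 1000 UMIs a nucleus. No paired analysis was possible because each group is 1 library and the labels number no replicates, and for the same reason no replicate was left out. Comparing shares of nuclei, leaving out the nucleus with most UMIs, using nuclei without a Cadm3 UMI and averaging over draws were chosen after seeing the data. The cause was not tested for any change. Depth limits Selp and Lrg1 most.

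The share of endothelial nuclei was 6.31% with a gate of 3 UMIs, 3.75% with 10, 5.74% with doublets kept and 2.38% without endothelial nuclei that reached another gate. With the gate of 10, 5 members rather than 3 were above every other gate. Without endothelial nuclei that reached another gate, 4 members rather than 5 were at least 2-fold above other nuclei in every library. Nuclei with 3 or more members were 1.43% with a gate of 3, 1.43% without Flt1, 1.39% with doublets kept, 1.28% without nuclei of another gate, 4.82% at 2000 UMIs and 6.31% with no thinning. These are single draws. Averaged over all draws of 1000 UMIs the share was 1.67%, with 1.54% at a gate of 3, 1.67% without Flt1, 1.51% with doublets kept and 1.35% without nuclei of another gate.

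Members at least 1.5-fold higher under AAV-VEGF-C in cortex (2) became 1 at a minimum of 100 UMIs, 0 at 1000 UMIs a nucleus and 0 on shares. In striatum (2) they became 1 without nuclei of another gate, 0 at 1000 UMIs, 1 on shares and 1 without the top nucleus, and 1 was lower without nuclei of another gate. Higher in both regions (2) were 1 without nuclei of another gate, 1 at a minimum of 100, 0 at 1000 UMIs, 0 on shares and 1 without the top nucleus. At 1000 UMIs Lrg1 fell under the minimum of 20 UMIs with log2 ratios of 0.67 and 0.98 by AAV label, and of 0.67 by region under AAV-VEGF-C, all past 1.5-fold. Without nuclei of another gate Icam1 in cortex had 1.45 and Vcam1 in striatum -0.79 as log2 ratio.

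By region label, members higher under AAV-CTRL (3) became 5 with a gate of 10, 1 with doublets kept, 1 without nuclei of another gate, 1 at 1000 UMIs and 0 on shares. Under AAV-VEGF-C (1) they became 0 without nuclei of another gate, 2 with no minimum and 0 at 1000 UMIs, and 2 were lower without nuclei of another gate. Higher under both (1) were 2 with no minimum and 0 without nuclei of another gate, at a minimum of 100, at 1000 UMIs, on shares and without the top nucleus. The direction of Lrg1 under AAV-CTRL reversed on shares (-0.37).

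Of the list genes by AAV label, those higher in cortex became 11 with no minimum, 2 at a minimum of 100 and 1 at 1000 UMIs, and those lower 8, 0 and 2. Those higher in striatum became 2 with a gate of 10, 2 without Flt1, 2 without nuclei of another gate, 4 with no minimum and 0 at 1000 UMIs. Those lower became 2 with a gate of 3, 3 with 10, 2 without Flt1, 3 without nuclei of another gate, 4 with no minimum, 0 at a minimum of 100 and 2 at 1000 UMIs.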

Other observations

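Leukocyte recruitment genes outside the 7 were read in the same endothelial nuclei. Icam2, a constitutive endothelial adhesion gene and ligand of LFA-1, stood at 98.7, 107, 71.9 and 82.4 CPM (counts per 1000000 UMIs) in the order of libraries used above, and Pecam1, a junction gene that leukocytes use in transmigration, at 357, 298, 324 and 339. Neither was 1.5-fold apart between AAV labels in either region. Selplg, which encodes the P-selectin ligand of leukocytes, stood at 9.87, 7.30, 10.4 and 10.8 and was lower in endothelial than in other nuclei in every library, by log2 ratios of -1.53 to -0.72.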
